A study of Mus musculus with 2 samples.

Results

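The hormone genes Gcg, Cck, Sct, Gip, Ghrl, Nts, Pyy, Sst, Tac1 and Tph1 were followed in single cells sorted as intestinal epithelium. They were taken by symbol, 10 of the 32285 genes in the count tables, and all 10 were found in both libraries. The libraries came from mice given 2.5% dextran sulfate sodium (DSS), a salt in the drinking water that injures the gut lining, with cells taken on day 7. One library held cells of wild type (WT) littermates, and the other held cells of MG53-TG mice, in which a transgene overexpresses MG53 throughout the body. MG53, also called TRIM72, is a membrane repair protein of muscle. Cells that carried the epithelial surface protein EpCAM and excluded the dead-cell dye 7-AAD were sorted from crypts and captured with the 10x Genomics 3′ kit. The labels name the intestine as the tissue without a segment, and give no age. A figure legend of the study states a number of mice per group for this experiment, but the labels tie no cell to a mouse, so that each library counts as 1 sample. No untreated library was analysed here.

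Enteroendocrine cells are scattered hormone-secreting cells of the gut epithelium that sense nutrients and other signals and release peptides or amines from dense-core granules. They are classically named by their main product: glucagon-like peptides (L cells), cholecystokinin (I cells), GIP (K cells), secretin (S cells), somatostatin (D cells), ghrelin (X cells), neurotensin (N cells), or serotonin (enterochromaffin cells). A single cell can hold transcripts of several of these products, so that the members were examined both one at a time and in combination.

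A cell was counted as enteroendocrine when it held transcripts of at least 3 of 6 genes. These were Chga, Chgb and Scg3, which encode granins, Cpe and Pcsk1, which encode enzymes of prohormone processing, and Neurod1, a transcription factor of the lineage. None of the hormone genes entered this gate. Among cells with at least 1354 UMIs (unique molecular identifiers, each standing for 1 captured transcript), 200 genes or more and no more than 25% of UMIs from mitochondrial genes, 343 of 7401 WT cells (4.63%, 95% Clopper-Pearson interval 4.17 to 5.14) and 186 of 5153 MG53-TG cells (3.61%, 3.12 to 4.16) passed the gate. The difference was -1.03 percentage points (Newcombe interval -1.72 to -0.315), and it was -0.663 (-1.32 to 0.0154) when 4 of the 6 genes were required. With the gate applied to cells thinned to 1354 UMIs it was -0.540 (-1.15 to 0.0895), so that the interval included 0 under both of these gates. With 1 library per genotype there were no replicates and no test between genotypes. All intervals cover counting error only.

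The median depth of an enteroendocrine cell was 8406 UMIs (WT) or 10041 UMIs (MG53-TG), and that of all other cells was 14818 or 18563. Trim72 itself, which checks the labels, stood at 0.217 counts per 1000000 UMIs (CPM) in WT, as against 112 CPM in MG53-TG enteroendocrine cells. Before the mitochondrial limit, 33.7% of WT and 46.1% of MG53-TG barcodes lay above it and were left out. Of the kept barcodes, 8 occurred in both libraries, none of them enteroendocrine in both. Genes of distal segments were scarce: Car1 and Hoxb13, which mark the colon, had 0 UMIs in the enteroendocrine cells of either library, which allows up to 0.652 CPM in WT against 1.32 CPM in MG53-TG. Insl5, a hormone of colonic L cells, also had 0 UMIs. Gata4, a transcription factor of the proximal small intestine, stood at 30.2 and 33.5 CPM, and Fabp6, an ileal bile acid carrier, at 52.1 and 1.32 CPM.

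Genes of another cell type were high in the gated cells of WT. The 6 Paneth cell genes examined (Lyz1, Itln1, Mmp7, Defa17, Defa24 and Ang4) summed to 43608 CPM in the WT enteroendocrine cells and 737 CPM in those of MG53-TG, all 6 being above 0 in both, while they stood at 49553 and 34527 CPM in other cells. In 8 of the gated WT cells these genes made up 10% or more of the UMIs. Those 8 cells had a median of 68485 UMIs and held 12.2% of all UMIs of the gated WT cells, whereas MG53-TG had no such cell. The 44 WT cells with exactly 3 gate genes held 2527 CPM of the 10 members together, against 70453 CPM in the 299 WT cells with 4 to 6. In MG53-TG the same values were 11032 CPM in 12 cells and 86070 CPM in 174. Goblet cell genes summed to 24015 and 14167 CPM in the gated cells. Requiring 4 gate genes lowered this excess and did not remove it: the Paneth genes then summed to 17998 CPM in WT, against 694 CPM in MG53-TG, and the 6 enterocyte genes to 6917 against 3665 CPM. All 6 Paneth genes (median log2 ratio -4.1) and 4 of 6 enterocyte genes (median -0.86) were at least 1.5-fold lower in MG53-TG with 4 gate genes. With 3 gate genes, 1 of the 6 enterocyte genes was higher and none lower (median 0.04). Ratios of the members and of the main lists between the libraries are given with both gates, and the part of these cells in the ratios was not tested beyond leaving them out.

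The members were hormone genes of these cells in both libraries. Together they made up 5.07% of all UMIs of WT and 7.93% of all UMIs of MG53-TG enteroendocrine cells, and 0.0111% and 0.0123% of the UMIs of other cells. At least 1 UMI of a member was found in 339 of 343 WT and 184 of 186 MG53-TG enteroendocrine cells. Single UMIs were also common in other cells. Of these, 35.8% in WT and 48.4% in MG53-TG held a UMI of Sct, and 22.7% and 15.0% held a UMI of Gip. No member reached 5 UMIs in 30 WT and 12 MG53-TG enteroendocrine cells. All 10 members were at least 10-fold higher in enteroendocrine than in other cells of both libraries, as were 3.76% of the genes with enough UMIs. The smallest excess was that of Sct, at 99.4-fold in WT and 96.7-fold in MG53-TG, and the largest was that of Ghrl in MG53-TG, at 6684-fold.

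Gip, Sst and Sct had the highest levels of the 10 in both libraries. The 3′ kit counts each captured transcript once whatever its length. Levels of different genes are set side by side on that basis, all in CPM over the summed enteroendocrine cells. Whether the genes were captured equally well was not checked. Gip (ENSMUSG00000014351, chr11:96024545-96030831, plus strand, build GRCm38) encodes the incretin released by K cells after a meal. It held 82579 UMIs and 17935 CPM in WT, and 54682 UMIs and 24068 CPM in MG53-TG. Sst (ENSMUSG00000004366, chr16:23889573-23890958, minus strand) encodes somatostatin, which inhibits the release of most other gut hormones, and stood at 11582 and 17476 CPM. Sct (ENSMUSG00000038580, chr7:141278330-141279133, minus strand) encodes secretin, which drives bicarbonate secretion by the pancreas, and stood at 6467 and 9152 CPM.

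The spread of these 3 transcripts over cells differed. Sct reached at least 5 UMIs in 254 WT cells (74.1%) and 147 MG53-TG cells (79.0%), the highest share of any member, with a median of 25 and 44 UMIs in the cells that reached it. Gip reached 5 UMIs in 67 WT cells (19.5%) and 43 MG53-TG cells (23.1%), with medians of 869 and 857 UMIs. Sst reached it in 33 (9.62%) and 18 (9.68%) cells, with medians of 989 and 2056 UMIs. Gip and Sst thus reached 5 UMIs in fewer cells and at a higher median copy than Sct. Sct was not low in every cell, however: 61 WT and 53 MG53-TG cells gave over 1% of their transcripts to it, against 54 and 36 for Gip and 31 and 17 for Sst. The highest share of a cell's transcripts was 34.5% in WT and 11.6% in MG53-TG for Sct, 35.4% and 44.7% for Gip, and 44.1% and 38.6% for Sst.

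**Figure D1:**
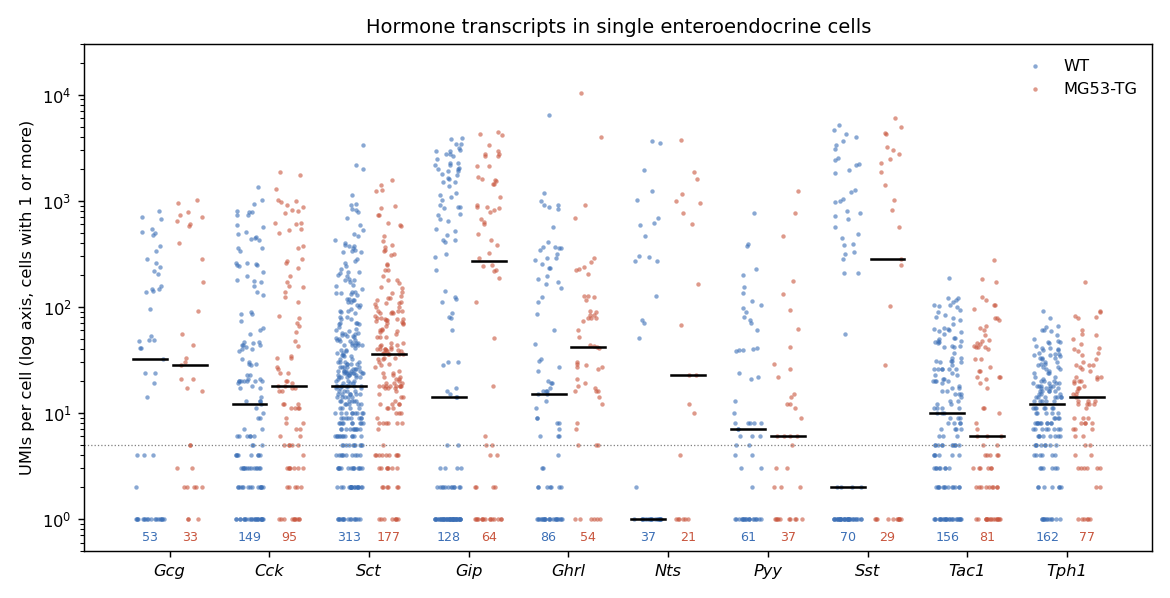
UMIs of each member per enteroendocrine cell, on a log axis, for cells with at least 1 UMI; points are cells (blue WT, red MG53-TG), bars are medians, numbers give the cells plotted and the dotted line marks 5 UMIs. Sst separates in both libraries into cells with at most 2 UMIs and cells with at least 28, whereas Gip has cells between its low and high ends and Sct, Tac1 and Tph1 spread without a gap.

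The 250 bases before the transcription start of these 3 members are shown because their transcripts were the most abundant and yet differed so much in how many cells held them. The sequences are those of RefSeq (GRCm38.p6), 5′ to 3′ on the strand of the gene, and all 10 members had an entry. Capitals mark motifs found on either strand: GATAA together with GTTAAT for the first stretch, TGACGTCA for the second and TATAAA for the third. The Gip stretch is chr11:96024295-96024544 (plus strand), that of Sst is chr16:23890845-23891094 (minus strand) and that of Sct is chr7:141279134-141279383 (minus strand).
Gip: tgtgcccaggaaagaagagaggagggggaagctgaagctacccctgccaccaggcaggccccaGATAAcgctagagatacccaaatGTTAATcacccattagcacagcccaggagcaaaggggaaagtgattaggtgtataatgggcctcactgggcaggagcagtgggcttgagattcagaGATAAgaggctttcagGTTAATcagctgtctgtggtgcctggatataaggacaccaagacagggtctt
Sst: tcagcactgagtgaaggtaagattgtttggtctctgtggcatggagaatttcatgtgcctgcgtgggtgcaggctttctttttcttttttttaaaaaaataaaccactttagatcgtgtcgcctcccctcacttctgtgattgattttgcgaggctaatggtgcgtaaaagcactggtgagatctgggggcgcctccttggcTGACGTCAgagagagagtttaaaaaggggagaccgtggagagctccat
Sct: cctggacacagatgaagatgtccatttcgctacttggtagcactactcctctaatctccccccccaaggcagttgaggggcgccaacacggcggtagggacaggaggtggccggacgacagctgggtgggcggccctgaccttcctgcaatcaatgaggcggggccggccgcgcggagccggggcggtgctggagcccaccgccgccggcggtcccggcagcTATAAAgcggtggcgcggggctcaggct

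TGACGTCA, the palindromic cAMP response element, began at position -48 of Sst and was found in 1.55% of the 32851 promoter stretches of the same length in the table. GATAA, the core bound by GATA factors, occurred at positions -187 and -68 of Gip and in 22.6% of all stretches. GTTAAT, part of the element bound by HNF1 factors, occurred at positions -164 and -52 of Gip and in 6.43% of all stretches. TATAAA, the core promoter motif bound by TBP, began at position -28 of Sct and was held by 12.4% of all stretches. The GC box GGGCGG (32.7% of all stretches) and the E-box CACGTG (6.02%) were also searched, on both strands like the rest, and GGGCGG began at -123 and -69 of Sct. No marked motif overlapped another. Among the other members with a single listed start, TATAAA began at position -24 of the proglucagon gene and, on the opposite strand, at -72. GATAA began at -188 of Cck, -130 of Nts and -31 of Tac1, the E-box at -66 of Cck and -61 of Tac1, and the GC box at -107 of Tac1. Ghrl, Pyy and Tph1 have several listed starts and were not searched. The RefSeq start of Sst lies inside the GENCODE span of the gene given above. These matches describe letters only.

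Gcg, Cck and Pyy, whose products nutrient-sensing L and I cells release, were less abundant. Gcg (ENSMUSG00000000394, chr2:62474530-62483650, minus strand) encodes the precursor of GLP-1 and GLP-2. It stood at 1599 CPM in WT against 3201 CPM in MG53-TG, with at least 5 UMIs in 31 (9.04%) and 23 (12.4%) cells. Cck (ENSMUSG00000032532, chr9:121489824-121495694, minus strand) encodes cholecystokinin, which contracts the gallbladder and promotes satiety, and stood at 3606 and 8488 CPM. Cck was the second most widespread peptide transcript in MG53-TG, with 5 UMIs in 72 cells (38.7%), and reached them in 90 WT cells (26.2%). Pyy (ENSMUSG00000017311, chr11:102106676-102107832, minus strand) encodes peptide YY, which slows gut transit, and stood at 724 and 1398 CPM with 37 (10.8%) and 22 (11.8%) such cells. Pyy led in no WT cell and 2 MG53-TG cells, meaning that it was rarely the member with the most UMIs in a cell.

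Ghrl (ENSMUSG00000064177, chr6:113716119-113719880, minus strand) encodes ghrelin, which stimulates appetite. It stood at 4019 CPM in WT against 8441 CPM in MG53-TG, and reached 5 UMIs in 54 (15.7%) and 48 (25.8%) cells. A single cell held 35.0% of all Ghrl UMIs of the WT enteroendocrine cells (6483 UMIs) and another held 54.1% of those of MG53-TG (10368 UMIs). Nts (ENSMUSG00000019890, chr10:102481756-102490486, minus strand), for neurotensin, stood at 3301 and 5232 CPM but reached 5 UMIs in 17 (4.96%) and 14 (7.53%) cells, the fewest of all. The 5 highest cells held 74.8% and 78.0% of its UMIs.

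The enterochromaffin transcripts were low in copy and spread over many cells. Tph1 (ENSMUSG00000040046, chr7:46644641-46672537, minus strand) encodes the rate-limiting enzyme of serotonin synthesis outside the brain. Tac1 (ENSMUSG00000061762, chr6:7554879-7565834, plus strand) encodes substance P and neurokinin A. Tph1 stood at 611 CPM in WT against 787 CPM in MG53-TG, with 5 UMIs in 131 (38.2%) and 61 (32.8%) cells, and no WT cell devoted as much as 1% of its transcripts to it. Tac1 stood at 822 and 1080 CPM, with 104 (30.3%) and 45 (24.2%) such cells. The order of levels was Gip, Sst, Sct, Ghrl, Cck, Nts, Gcg, Tac1, Pyy and Tph1 in WT. In MG53-TG, Cck lay just above Ghrl, with counting intervals that overlapped, and Pyy lay above Tac1.

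Between the libraries, all 10 members had higher CPM in the summed MG53-TG cells, and 6 of 10 were at least 1.5-fold higher, as were 18.0% of the 10809 genes with at least 30 UMIs. None was 1.5-fold lower, against 5.70% of those genes. The log2 ratios of MG53-TG over WT were 1.24 for Cck (interval 1.21 to 1.27), 1.07 for Ghrl (1.04 to 1.10), 1.0 for Gcg (0.95 to 1.05), 0.95 for Pyy (0.88 to 1.02), 0.66 for Nts (0.63 to 0.70) and 0.59 for Sst (0.57 to 0.61). Sct, Gip, Tac1 and Tph1 had ratios of 0.50, 0.42, 0.39 and 0.37. The median was 0.63 for the members and 0.25 for all genes. These intervals are narrow because they treat UMIs as independent, although few cells carried most of them.

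The ratios depended on which cells were summed. With 4 gate genes required, 4 members (Cck, Ghrl, Gcg and Pyy) were 1.5-fold higher in MG53-TG, as were 9.31% of the genes, and none was lower, as were 5.92%. The median log2 ratio of the members was then 0.28, against 0.13 for all genes, with 0.86 for Cck, 0.71 for Ghrl, 0.64 for Gcg and 0.59 for Pyy. The other 6 members lay between 0.03 and 0.30. Without the 5 cells with the most UMIs of each member, Ghrl changed direction (log2 ratio -0.41) and so did Pyy (-0.76). Cck (1.12) and Gcg (0.59) were still 1.5-fold higher, but the interval of Gcg (0.52 to 0.66) spanned the 1.5-fold line. Treated in the same way, 13.8% of the genes were 1.5-fold higher and 12.5% lower, and the median was 0.17 for the members and 0.15 for all genes. When single-cell CPM were averaged, so that every cell counted alike, Cck (0.80) and Gcg (0.67) were the members past 1.5-fold, as were 7.84% of the genes, and no member was lower, as were 8.52%. The median was then 0.06 for the members and 0.06 for all genes. With the gate applied to thinned cells, 3 members were 1.5-fold higher and none lower, as were 6.31% and 5.60% of the genes, and both medians were again 0.06. Cck and Gcg were the 2 members past 1.5-fold under each of the 4 ways of summing in the plot of ratios by setting.

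**Figure D2:**
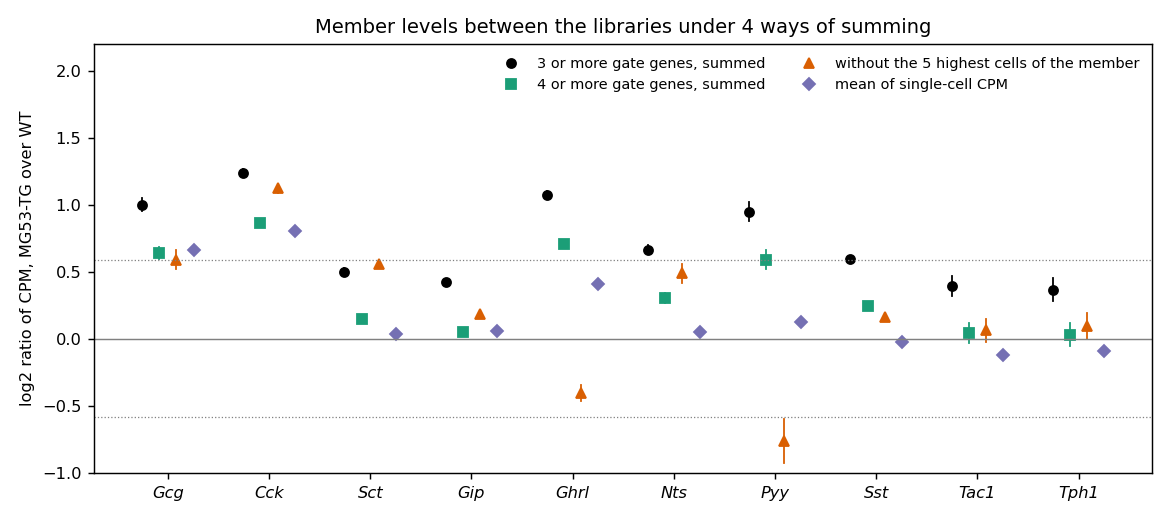
Log2 ratio of CPM, MG53-TG over WT, for each member under 4 ways of summing the enteroendocrine cells; vertical lines are 95% counting intervals (none for averaged single-cell CPM) and dotted lines mark 1.5-fold. Cck and Gcg lie above the upper dotted line under all 4, and Ghrl and Pyy fall below 0 without their 5 highest cells. Without its 5 highest cells Gcg lies just above that line, with an interval that spans it.

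Counted as cells rather than UMIs, the share of enteroendocrine cells with at least 5 UMIs was higher in MG53-TG for 8 of 10 members, as it was for 42.0% of the genes with 30 UMIs and such a cell. The interval of the difference lay above 0 for 2 members and 6.55% of the genes, and below 0 for no member and 4.30% of the genes. For Cck the difference was 12.5 percentage points (4.17 to 20.9), and for Ghrl it was 10.1 points (2.92 to 17.6). With 4 gate genes it was 9.65 points (0.856 to 18.5) for Cck and 9.86 points (2.14 to 17.9) for Ghrl. The share was then higher for 7 members and 54.8% of the genes, with an interval above 0 for 2 members and 9.07% of the genes, and below 0 for no member and 1.34% of the genes. Tac1 and Tph1 had lower shares in MG53-TG, by -6.13 (-13.7 to 1.96) and -5.40 (-13.6 to 3.23) points, intervals that include 0. Gcg had a higher share, by 3.33 points (-1.98 to 9.42), and this interval also includes 0. Per 1000 kept cells of any kind, 17.7 WT and 11.8 MG53-TG cells reached 5 UMIs of Tph1, and 14.1 and 8.73 reached them for Tac1. The values were 12.2 and 14.0 for Cck, and 7.30 and 9.32 for Ghrl. The kept cells included 855 WT and 340 MG53-TG cells led by immune markers, as placed below. MG53-TG cells were deeper. When every cell was thinned to 1354 UMIs, the expected share with a UMI was 30.5% in WT and 37.8% in MG53-TG for Cck, 17.2% and 24.0% for Ghrl, 32.2% and 28.0% for Tac1, and 38.0% and 32.7% for Tph1. For these 4 members the directions were those of the unthinned shares of cells with 5 UMIs. For Sst the thinned share was lower in MG53-TG (12.1% and 10.4%), whereas the unthinned share with 5 UMIs was nearly equal.

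Each cell was next assigned to its leading member, the one with the most UMIs and at least 5. A leader was found in 312 WT (91.0%) and 174 MG53-TG (93.5%) cells. The order of leaders was alike at the top: Sct led 80 WT cells (23.3%) and 41 MG53-TG cells (22.0%), Tac1 63 (18.4%) and 34 (18.3%), and Gip 50 (14.6%) and 30 (16.1%). Sst led 32 (9.33%) and 17 (9.14%), Cck 24 (7.00%) and 18 (9.68%), and Gcg 13 (3.79%) and 8 (4.30%). Ghrl led 11 (3.21%) and 11 (5.91%), and Nts 11 (3.21%) and 7 (3.76%). Tph1 led 28 WT cells (8.16%) and 6 MG53-TG cells (3.23%), a difference of -4.94 points (-8.74 to -0.553), and this was the only leader whose interval excluded 0. With 4 gate genes it was -4.58 points (-8.66 to 0.0688), and with a leader of at least 20 UMIs -3.01 points (-5.77 to 0.202), so that the interval then included 0. It also included 0 with 2 gate genes (-2.57 points, -4.82 to 0.134), where the interval of Pyy excluded it (1.01 points, 0.0962 to 2.93). With the gate applied to thinned cells the difference of Tph1 was -7.67 points (-12.5 to -2.29). The 30 WT cells in which no member reached 5 UMIs had a median of 21487 UMIs, against 12379 in the 12 such MG53-TG cells, and in 1 further WT cell Sct and Tac1 were tied. Leadership is a range rather than a type: in 105 WT and 55 MG53-TG cells the runner-up had at least 0.5 of the leader's UMIs. Among these were 19 of the 28 WT and 4 of the 6 MG53-TG cells led by Tph1. The intervals were not corrected for the number of leaders.

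**Figure D3:**
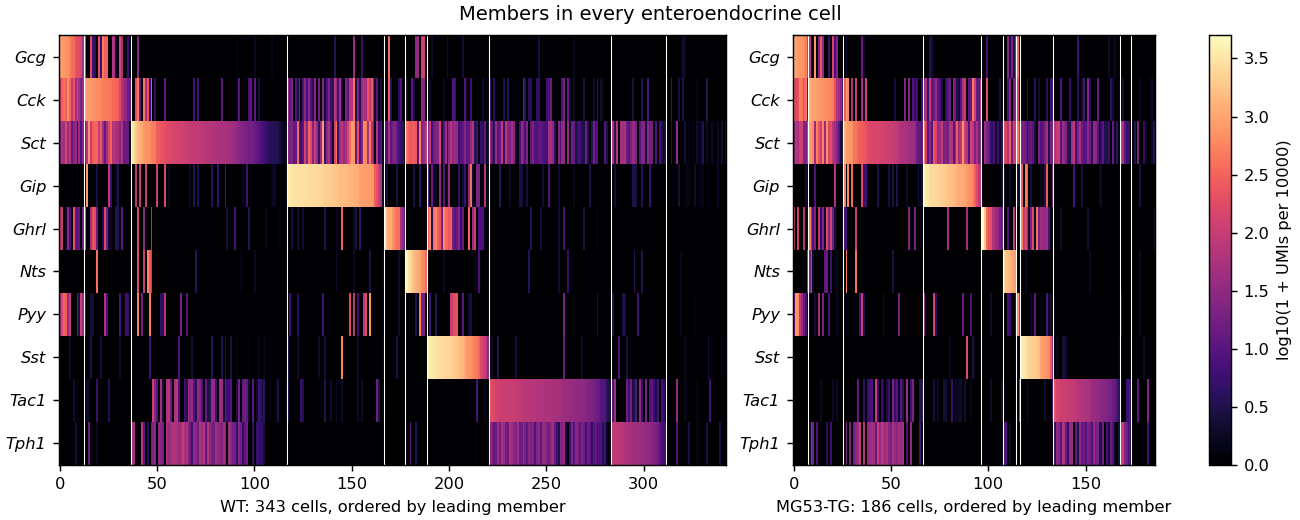
Every enteroendocrine cell of WT (left) and MG53-TG (right) as a column, ordered by its leading member and separated by white lines, with colour giving log10(1 + UMIs per 10000) of each member. Sct runs across most columns, Tac1 and Tph1 fill the same block, and the Gip and Sst blocks are the brightest.

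Most enteroendocrine cells held several hormone transcripts. At 5 UMIs, 78.4% of WT and 82.8% of MG53-TG cells held 2 or more members, and 49.9% and 57.5% held 3 or more. Outside the gate, 5 UMIs of a member other than Sct were found in at most 0.342% of cells in either library (their median depths are given above), whereas Sct reached it in 6.63% of WT and 13.1% of MG53-TG other cells. For each of the 45 pairs, the share of cells with the first member that also held the second was set beside the share among cells without the first. At 1 UMI, 5 pairs were found together more often, with separate intervals in both libraries, and 8 less often. At 5 UMIs these counts were 10 and 11. At that level 43 of 45 pairs had the same direction in both libraries and 7 pairs occurred in no cell.

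Gcg and Cck took part in most of the pairs found together. Of the WT cells with Gcg, 93.5% (78.6 to 99.2) also held 5 UMIs of Cck, against 19.6% of the cells without Gcg. Of the MG53-TG cells with Gcg, 91.3% did. Pyy was held by 58.1% of WT and 56.5% of MG53-TG cells with Gcg, and Ghrl by 51.6% and 56.5%. Cck was also paired with Sct, Gip and Pyy, and Sct with Gcg and Gip. In WT, 58.2% of the cells with Gip held Cck, and in MG53-TG 72.1% did. None of the cells with Gip held Nts, and 1 of 67 WT and 3 of 43 MG53-TG cells with Gip held Gcg.

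Ghrl was shared between peptide cells and somatostatin cells. Of the cells with Sst, 21 of 33 in WT (63.6%) and 14 of 18 in MG53-TG (77.8%) also held at least 5 UMIs of Ghrl. In the cells led by Sst, Ghrl stood at 12716 CPM in WT against 8445 CPM in MG53-TG. Where Ghrl itself led, it made up a median of 5.04% of a cell's transcripts in WT and 0.637% in MG53-TG, where 2 of the 11 cells held 10368 and 4009 of its UMIs and no other held more than 286. Cck was nearly absent from cells with Sst, being held by 1 of them in each library.

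Tac1 and Tph1 were found together and mostly apart from Gcg, Cck, Gip, Ghrl and Sst. The pairs of Nts or Pyy with Tac1 or Tph1 did not have separate intervals in both libraries. Of the WT cells with Tac1, 77.9% held Tph1, against 20.9% of the WT cells without Tac1. In MG53-TG it was 68.9% against 21.3%. The 11 pairs found together less often than apart were each of Gcg, Cck, Gip, Ghrl and Sst with Tac1 and with Tph1, and Cck with Sst. No cell of either library held 5 UMIs of both Tph1 and Gcg, Gip or Sst. Sct crossed this divide: 68.3% of WT and 68.9% of MG53-TG cells with Tac1, and 76.3% and 88.5% of those with Tph1, held at least 5 UMIs of it. Among the cells led by Sct, 65.0% in WT and 68.3% in MG53-TG held Tph1, while Gcg was held by 1.25% and 2.44%.

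**Figure D4:**
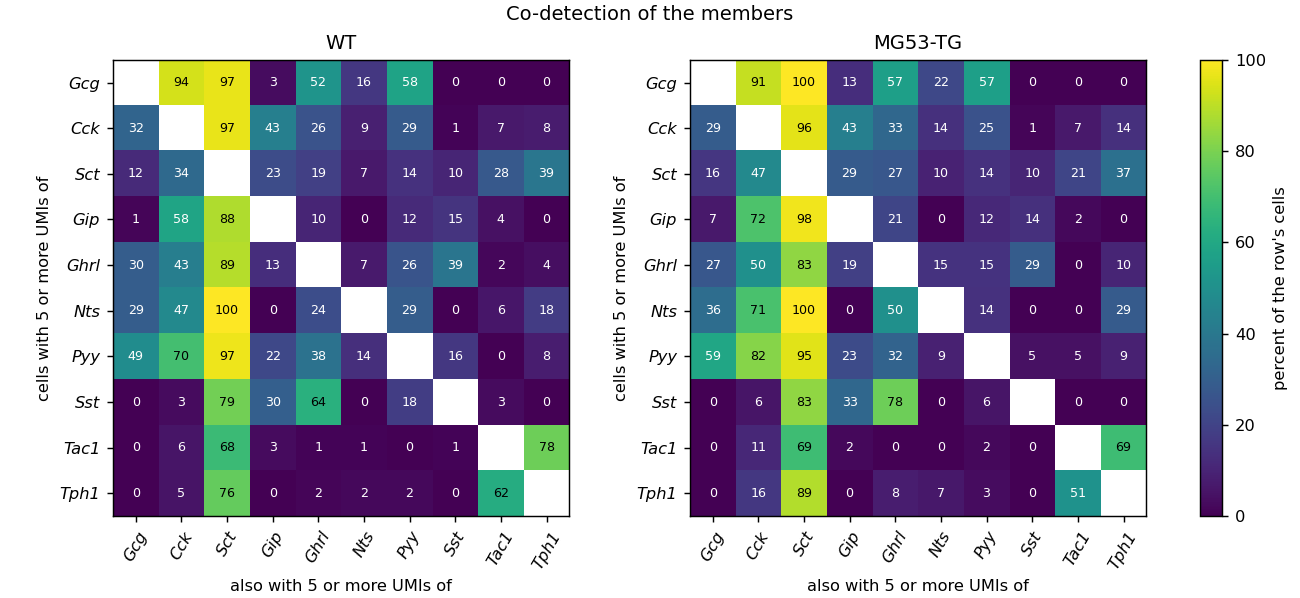
Percent of the cells with at least 5 UMIs of the row member that also held at least 5 UMIs of the column member, in WT (left) and MG53-TG (right). The Sct column is high throughout, Gcg, Cck and Pyy form a block, and Ghrl and Sst share cells. Tac1 and Tph1 stand apart from Gcg, Cck, Gip, Ghrl and Sst.

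Genes that varied with each member over enteroendocrine cells were named by Pearson's r on log values of UMIs per 10000, computed over 343 WT and 186 MG53-TG cells among 8703 genes found in at least 20 of each. Cells of a library share their library and differ in depth, so that r is a description. Sst had the closest companions: Hhex, a homeobox factor of somatostatin cells in the pancreas (r = 0.88 in both libraries), Iapp, which encodes amylin (0.86 and 0.87), and the ion channel gene Asic5 (0.74 and 0.71). Gip went with Fabp5, a fatty acid carrier (0.80 and 0.84), Cnr1, the cannabinoid receptor (0.83 and 0.79), and Sphkap. Gcg went with the transcription factor Etv1 (0.76 and 0.73), Fars2 and Ffar1, a receptor of long-chain fatty acids. Cck went with Scg2, a granule protein (0.69 and 0.74), Ffar1 and Etv1, and Pyy with Etv1, Map2 and Gchfr.

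Ghrl went with Ceacam10, Mboat4 and Cd177 (r from 0.43 to 0.63). Mboat4 encodes the enzyme that attaches the fatty acid which ghrelin needs for activity, and stood at 12.4 CPM in WT against 32.1 CPM in MG53-TG. Nts went with Uchl1 (0.64 and 0.75), Pde3a and D930028M14Rik. Sct went with Myl7 (0.62 and 0.61), Cpe and Adgrg4. Tac1 went with Vim (0.78 and 0.72), Rab3c, a vesicle protein, and Gstt1. Tph1 went with Chga (0.82 and 0.74), the factor Lmx1a (0.75 and 0.79) and Slc18a1, which loads amines into granules (0.75 and 0.79). Cpe and Chga are gate genes.

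Lists of transcription factors, granule genes, receptors, serotonin genes, other peptides and markers of other cell types were then compared between the cells led by 1 member and all other enteroendocrine cells, over 99 list genes with at least 30 UMIs. In the cells led by Sst, 4 list genes were at least 4-fold higher in both libraries, as were 0.324% of all genes. Iapp stood at 2606 CPM against 18.3 CPM elsewhere in WT and 4202 against 11.9 CPM in MG53-TG, and Hhex at 375 against 2.88 CPM and 499 against 7.41 CPM. Hhex was found in 31 of 32 WT and 17 of 17 MG53-TG cells led by Sst. Pcsk2, a prohormone convertase, was also higher but came from 2 cells in each library. In the cells led by Gip, 2 list genes passed, as did 0.453% of all genes. Cnr1 was 30.3-fold higher in WT (306 against 10.1 CPM) and 31.4-fold in MG53-TG (295 against 9.38 CPM), and the prostaglandin receptor gene Ptger3 was 9.32-fold and 17.2-fold higher.

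In the cells led by Gcg, 4 list genes passed (0.370% of all genes). Etv1 was 19.6-fold higher in WT and 11.5-fold in MG53-TG and was found in all 13 and 8 of these cells, and Ffar1 was 9.16-fold and 7.20-fold higher. Gpr119, a lipid receptor on L cells, was 20.4-fold higher in WT and 4.59-fold in MG53-TG, the latter from 5 UMIs. In the cells led by Cck, Scg2 was 7.79-fold and 8.54-fold higher and Etv1 6.05-fold and 4.0-fold (2 list genes, 0.333% of all genes). In those led by Ghrl, 2 list genes passed (0.537% of all genes), among them the factor Neurod2 (18.7-fold and 4.56-fold). In those led by Nts, 2 list genes passed (0.916% of all genes), among them Ffar1 (10.9-fold and 4.95-fold).

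Of the genes with enough UMIs, 1 of 7 serotonin genes and 1 of 15 receptor genes were 4-fold higher in the cells led by Tph1, and none and 5 were 4-fold lower. Trpa1, an irritant-sensing channel, was 10.9-fold higher in WT and 11.3-fold in MG53-TG cells led by Tph1, and Slc18a2, an amine transporter of vesicles, was 9.57-fold and 8.17-fold higher. Vgf, a granule peptide precursor, was also higher there, on 8 and 5 UMIs, and 5 list genes passed in all (0.638% of all genes). In the cells led by Tac1, 7 list genes passed (0.407% of all genes), among them Rab3c (7.38-fold and 9.06-fold) and the factor Mnx1 (7.23-fold and 13.6-fold). Ascl2, a stem cell factor, was at 34.3 CPM in 5 of the WT cells led by Tac1 and at 11.6 CPM in 1 of those of MG53-TG, against 2.56 CPM and 0 UMIs in all other enteroendocrine cells. No list gene passed in the cells led by Sct, where 0.167% of all genes did.

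More list genes were lower than higher in the cells led by each of these members. Of the 99 list genes, 33 were at least 4-fold lower in both libraries in the cells led by Nts (15.1% of all genes), 28 in those led by Gcg (8.92%), 26 in those led by Ghrl (7.04%), 25 in those led by Sst (2.53%), 24 in those led by Tac1 (1.67%), 22 in those led by Tph1 (6.69%), 20 in those led by Cck (2.23%), 20 in those led by Gip (2.24%) and 3 in those led by Sct (0.370%). These lists include markers of other cell types. The minimum of UMIs was set on all enteroendocrine cells together and not on each group. A gene could therefore hold few or no UMIs in a small group. The counts were highest in the small groups led by Nts (11 WT and 7 MG53-TG cells), Gcg (13 and 8) and Ghrl (11 and 11). Sct led 80 and 41 cells and had the lowest count. The part of group size in these counts was not tested.

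Beside the members, other genes of the same cells had these values between the libraries, with 18.0% of all genes at least 1.5-fold higher in MG53-TG and 5.70% lower. Of 23 enteroendocrine transcription factors, 19 had enough UMIs, 14 were 1.5-fold higher and none lower, with a median log2 ratio of 0.97. Neurog3, the factor that commits cells to this lineage, stood at 36.3 CPM in WT against 99.5 CPM in MG53-TG (log2 ratio 1.46, 1.16 to 1.75) and was found in 6.41% and 14.0% of cells. Of 20 granule genes 10 were higher and none lower (median 0.63), and of 15 receptor genes 8 were higher and none lower (median 0.59). None of 7 serotonin genes was past 1.5-fold in either direction (median 0.35). Of 21 other gut peptides, 3 had 30 UMIs: Iapp, Ucn3 and Cartpt. With 4 gate genes, where 9.31% of all genes were higher and 5.92% lower, 9 of 19 transcription factors were higher and none lower (median 0.47), and Neurog3 had a log2 ratio of 0.78 (0.44 to 1.12). Then 2 of 20 granule genes were higher and 1 lower (median 0.29), 5 of 15 receptor genes were higher and none lower (median 0.26), and 1 of 7 serotonin genes was lower and none higher (median 0.04).

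Sct was also found outside the enteroendocrine cells. In WT 79.8% and in MG53-TG 69.6% of its UMIs lay in enteroendocrine cells, against 86.3% to 99.4% for the other 9 members. It stood at 65.1 CPM in WT against 94.7 CPM in MG53-TG other cells, and 35.8% and 48.4% of them held a UMI. The WT table also lists barcodes with fewer than 100 UMIs, which hold free RNA. In these, Sct stood at 459 CPM and Gip at 993 CPM, whereas in WT other cells Sct was the higher (65.1 against 18.2 CPM). The level in other cells divided by that in the near-empty barcodes was 0.142 for Sct and 0.0119 to 0.0621 for the other members. The order of the 2 genes thus differed between cells and near-empty barcodes. No near-empty barcodes were listed for MG53-TG.

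Sct outside the gate followed the secretory and tuft markers. Each other cell was placed by whichever of 6 marker lists led its expression. Cells led by tuft markers (chemosensory cells) held 238 CPM of Sct in WT and 255 CPM in MG53-TG, those led by goblet markers (mucus cells) held 158 and 164 CPM, and those led by Paneth markers (antimicrobial cells) held 86.4 and 135 CPM. Cells led by enterocyte markers held 17.3 and 16.4 CPM, those led by stem and cycling markers 17.7 and 32.2 CPM, and those led by immune markers 30.3 and 28.9 CPM. Gip in the same 6 groups ranged from 13.7 to 21.6 CPM in WT and from 7.88 to 21.6 CPM in MG53-TG, apart from the shallow immune-led cells at 56.8 and 46.2 CPM. At a common depth of 1354 UMIs, 27.4% of WT and 27.8% of MG53-TG tuft-led cells, 18.4% and 18.8% of goblet-led cells, and 3.56% and 2.78% of enterocyte-led cells were expected to show a UMI of Sct. In the 468 WT and 651 MG53-TG other cells with 5 UMIs of Sct, the gate genes differed in direction from other cells without Sct. Chga was lower (5.56 against 11.2 CPM in WT, 1.72 against 7.26 CPM in MG53-TG) and Pcsk1 was higher (5.08 against 2.91 CPM, 7.83 against 4.04 CPM), with intervals of the ratio that excluded 1 in both libraries. Cpe was higher in both (2.68 against 1.32 CPM, 1.80 against 1.11 CPM), with an interval that excluded 1 in WT. The intervals of Chgb, Neurod1 and Scg3 included 1 in both libraries. These groups grade into each other, since the second list reached at least 0.5 of the first in 251 of 1662 WT and 228 of 1782 MG53-TG goblet-led cells.

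**Figure D5:**
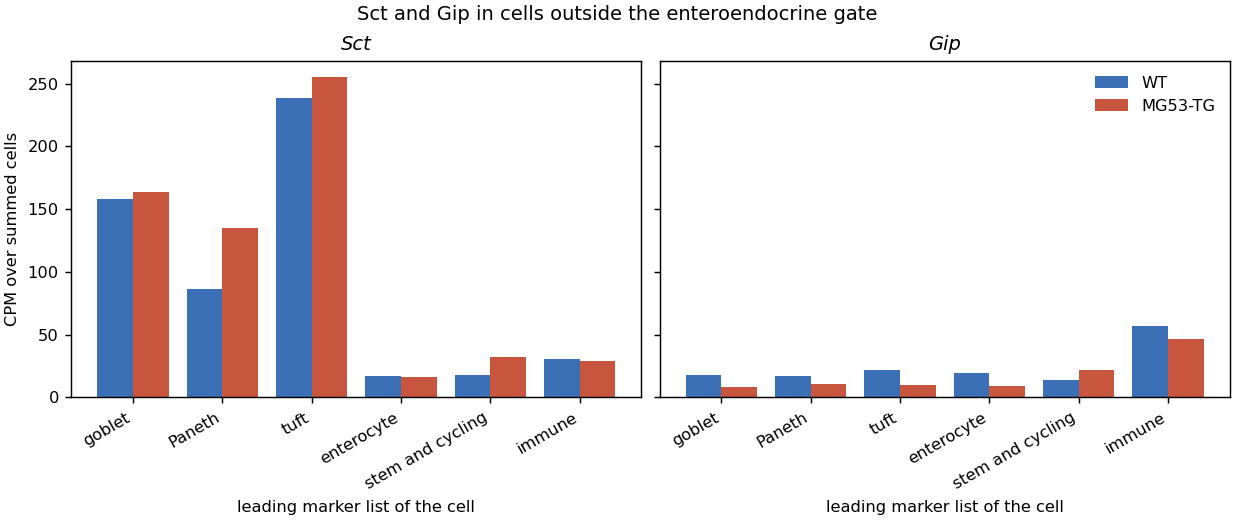
Level of Sct (left) and Gip (right) in CPM, summed over cells outside the enteroendocrine gate and grouped by the leading marker list, in WT (blue) and MG53-TG (red), with no error bars since each bar is 1 library. Sct is highest in tuft-, goblet- and Paneth-led cells, from 86.4 to 255 CPM, while Gip shows no such pattern.

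Outside the gate, the difference in Sct between the libraries varied by kind of cell. Over all other cells its log2 ratio was 0.54 (0.50 to 0.59). Within goblet-led cells it was 0.05 (-0.01 to 0.11), within tuft-led cells 0.10 (-0.02 to 0.22) and within enterocyte-led cells -0.08 (-0.26 to 0.10), but within Paneth-led cells it was 0.64 (0.53 to 0.75) and within stem-led cells 0.87 (0.70 to 1.03). Goblet-led cells held 21.5% of the UMIs of WT and 33.0% of those of MG53-TG other cells, and tuft-led cells 3.32% and 5.55%. With the MG53-TG levels and the WT mix, Sct would stand at 77.7 CPM, between the 65.1 and 94.7 CPM measured, and the part of the mix beyond this value was not tested. Among the remaining members, Tac1 was higher in MG53-TG other cells (3.16 and 4.08 CPM), and in each library it was highest in goblet-led cells, at 8.28 and 9.46 CPM. The other 8 were lower in MG53-TG other cells, by 0.39 to 1.54 on the log2 scale.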

How the data were processed

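Counts of UMIs per gene and barcode were deposited by the authors as 10x matrices, made with Cell Ranger 4 (WT) and Cell Ranger 6.0.1 (MG53-TG) per the file headers; the submitters' processing notes name mm10 and Seurat. The study's own filter removed cells with few genes, few UMIs or over 25% mitochondrial reads. The WT table is unfiltered, and the MG53-TG table starts at 500 UMIs. Barcodes with at least 1354 UMIs, 200 genes and at most 25% mitochondrial UMIs were kept, 7401 in WT and 5153 in MG53-TG.

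UMIs were summed over cells and given as counts per 1000000 UMIs (CPM), with exact Poisson, Clopper-Pearson, Newcombe and conditional binomial 95% intervals (Python 3.11.15, scipy 1.17.1). With 1 library per group no test was possible. Doublets were not removed, because Scrublet (scanpy 1.11.5) by its own threshold marked 0.0135% and 0.0388% of cells. As an alternative the highest scores were removed, 438 cells in WT and 212 in MG53-TG. This took out 44 of the 343 WT and 11 of the 186 MG53-TG enteroendocrine cells. The log2 ratios of MG53-TG over WT were then 1.3 for Ghrl, 0.87 for Cck, 0.74 for Pyy and 0.73 for Gcg. They were 0.46 for Sct, 0.41 for Nts, 0.10 for Tph1, 0.06 for Tac1, 0.04 for Gip and 0.03 for Sst. Gene positions are those of GENCODE M21. Scripts were tested on simulated data.

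The members and lists were chosen with earlier results of these data known. Named genes were the members, the 3 genes most correlated with each, and up to 3 list genes per leading member that were at least 4-fold higher in both libraries with at least 30 UMIs. The gate, Paneth and segment genes, Trim72, Neurog3, Insl5, Ucn3 and Cartpt were named outside this rule, with their values known. The other alternatives concern the gate, depth, mitochondrial limit, scaling and single cells of high copy. Some list genes that met the rule are not reported here.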

Additional observations from a re-analysis of the deposited data

How the results depend on the processing

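No paired analysis was possible because each genotype has 1 library and no replicate. The difference in the share of enteroendocrine cells was -2.48 points with a gate of 2 genes and kept its direction under the other alternatives, with an interval that included 0 with 4 gate genes (-0.663) and the thinned gate (-0.540, -1.15 to 0.0895). The median log2 ratio of the members, 0.63 as reported, was 0.73 with 2 gate genes, 0.28 with 4, 0.061 with the gate applied to thinned cells, 0.43 with the highest Scrublet scores removed, 0.67 with members left out of the total, 0.056 with single-cell CPM averaged, 0.38 with scaling by the median of ratios (a shift of 0.25 for all genes), 0.17 without the 5 highest cells and 0.45 without the Paneth-rich cells, an alternative chosen after seeing the data. The 6 members past 1.5-fold became 3 with the thinned gate and 2 with averaged single-cell CPM or without the 5 highest cells, where 1 member was also lower. Over genes with at least 1 UMI the background was 26.6% higher and 16.1% lower. The log2 ratio turned negative with the thinned gate for Gip (-0.089), Sst (-0.12), Tac1 (-0.00095) and Tph1 (-0.081), without the 5 highest cells for Ghrl (-0.41) and Pyy (-0.76), and with averaged CPM for Sst (-0.021), Tac1 (-0.12) and Tph1 (-0.088). Pairs found together more often numbered 5 at 1 UMI, 10 at 5 UMIs and 12 with 2 gate genes, and those less often numbered 8, 11 and 0. The 1 leader whose share differed, Tph1, became 0 leaders with 4 gate genes or with leaders of at least 20 UMIs, and with 2 gate genes the 1 leader was Pyy. The difference of Tph1 ranged over the alternatives from -7.67 points (thinned gate) to -2.57 (2 gate genes). The difference in share led by Sct became positive with 2 gate genes (0.805 points), the thinned gate (2.0), Scrublet removal (1.88) and 20 UMIs (4.40), that of Sst with 2 gate genes (0.651) and the thinned gate (0.0634), and that of Tac1 with 2 gate genes (1.12), the thinned gate (0.494), a minimum of 500 UMIs (0.291), a 50% mitochondrial limit (0.0117) and 20 UMIs (2.72). The causes were not tested.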
